A study of Mus musculus with 21 samples.

Results

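The potassium channels that repolarize the ventricular myocyte were followed through 9 genes, Kcnd2, Kcnd3, Kcnip2, Kcna4, Kcna5, Kcnj2, Kcnj3, Kcnj5 and Kcnq1. They were chosen by symbol, with earlier results of these data known, and each matched a single row of the 55450 genes counted. All 9 had enough counts to be tested.

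RNA was sequenced from the left ventricle of 21 male mice of strain 129S6/SvEv, to see how empagliflozin (EMPA), an inhibitor of the renal glucose transporter SGLT2, acts on a heart prone to hypertrophic cardiomyopathy. Wild-type (WT) mice on control diet formed WT-CD (n = 5), and WT mice fed EMPA formed WT-EMPA (n = 5). Mice of genotype Myh6+/R404Q, called R403Q, carry a mutant allele of Myh6, the main myosin heavy chain of the adult mouse ventricle, and were either fed the control diet (R403Q-CD, n = 7) or EMPA (R403Q-EMPA, n = 4). Both genotypes were littermates on the same base diet, begun at an age of 9 to 10 weeks, to which EMPA was added at 0.15 mg per g, or about 15 mg per kg of body weight. Hearts were sequenced at 12 weeks of age, which the study protocol places after 2 weeks of EMPA, while the sample labels name 16 weeks. All R403Q mice were heterozygous for this allele.

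Each mouse gave 23491535 to 43539684 counts. Myh6 and the other 8 ventricular markers were abundant in every mouse, and the atrial markers summed to 44.4 to 345 CPM (counts per 1000000) in all mice but R403Q-CD replicate 2, at 776. That mouse also had the highest Nppa, a natriuretic peptide gene induced by wall stress, at 10996 CPM, the highest fibroblast marker sum, at 6001 CPM, and the lowest ventricular marker sum, at 50313 CPM. The fitted differences of Kcnip2 and Kcnj5, the slopes on Nppa and the correlations of Kcnip2 are also given without it. Mice that share a number in their sample titles were taken as cage mates, although the titles do not say what the number is. Of 7 cages so inferred, 4 were on control diet and 3 on EMPA, with 0 holding both diets, so diet and cage cannot be told apart. Both genotypes were held in 6 of these cages. In bulk tissue, fewer cells of a type and less RNA per cell cannot be told apart either.

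A ventricular action potential ends when potassium leaves the myocyte. In mouse ventricle most of this work is done by the fast transient outward current of Kv4.2 (Kcnd2) and Kv4.3 (Kcnd3) with their calcium-binding accessory subunit KChIP2 (Kcnip2), together with Kv1.5 (Kcna5), while Kv1.4 (Kcna4) gives a slow transient current and Kv7.1 (Kcnq1) a slow delayed rectifier that is small in the adult mouse. Kir2.1 (Kcnj2) holds the resting potential through the inward rectifier current, and Kir3.1 (Kcnj3) with Kir3.4 (Kcnj5) forms the acetylcholine-gated channel, best known from atrium and nodal tissue. Loss of transient outward current is a well known feature of hypertrophied and failing hearts.

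R403Q hearts held less Kcnj5 and less Kcnip2 RNA than WT hearts when the genotypes were compared over both diets, and the other 7 genes did not pass the test. Kcnj5 fell by 0.39 on the log2 scale (SE 0.08, adjusted p = 0.00794), a fold of 0.764, and Kcnip2 fell by 0.43 (SE 0.13, adjusted p = 0.0424), a fold of 0.74, in edgeR's quasi-likelihood test of all 4 groups with Benjamini-Hochberg adjustment over 17309 genes. These were 2 of 9 genes called lower and 0 called higher, while of all genes 10.9% were called, 4.58% lower and 6.3% higher. The call of Kcnip2 was close to the threshold: it was lost with cage as a block (adjusted p = 0.0518) and in 14 of 21 fits that left out a mouse. The split over all genes was 1091 higher and 792 lower, and it was 1909 and 443 when libraries were scaled to their totals alone. All 9 fitted differences were negative, with a median of -0.16, against 47.2% of all genes and a median of 0.01. The 9 genes were chosen with earlier results of these data known, so these shares do not test the set against all genes. Scaled to library totals alone, 7 of 9 were negative, with Kcna4 and Kcna5 the exceptions.

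Markers of other cells moved with the genotype. All 7 macrophage markers were called higher in R403Q over both diets, and their sum was 265 to 431 CPM in R403Q-CD and 278 to 377 CPM in R403Q-EMPA, against 190 to 262 CPM in WT-CD and 158 to 260 CPM in WT-EMPA. Of 8 fibroblast markers 2 were called higher, with sums of 1623 to 6001 and 1756 to 2338 CPM in R403Q-CD and R403Q-EMPA and of 1220 to 2029 and 1076 to 1684 CPM in WT-CD and WT-EMPA. Of 9 ventricular markers, Myh6 was called lower, and the sum was 50313 to 91683 and 78458 to 87948 CPM in the R403Q groups and 90363 to 98835 and 90069 to 102326 CPM in the WT groups. Of 8 endothelial markers, all with a positive difference, 1 was called higher, with sums of 944 to 1170 and 999 to 1323 CPM in R403Q-CD and R403Q-EMPA and of 822 to 1004 and 897 to 1111 CPM in WT-CD and WT-EMPA. Of 8 conduction markers tested, Hcn4 was called lower, while the sum was 60.1 to 83.1 and 75.9 to 97.3 CPM in the R403Q groups and 62.6 to 90.0 and 58.6 to 97.6 CPM in the WT groups. Of 8 atrial markers tested, and of the markers of smooth muscle, pericytes and Schwann cells, 0 were called in either direction. The part of these marker differences in the falls of Kcnj5 and Kcnip2 was not tested.

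**Figure D1:**
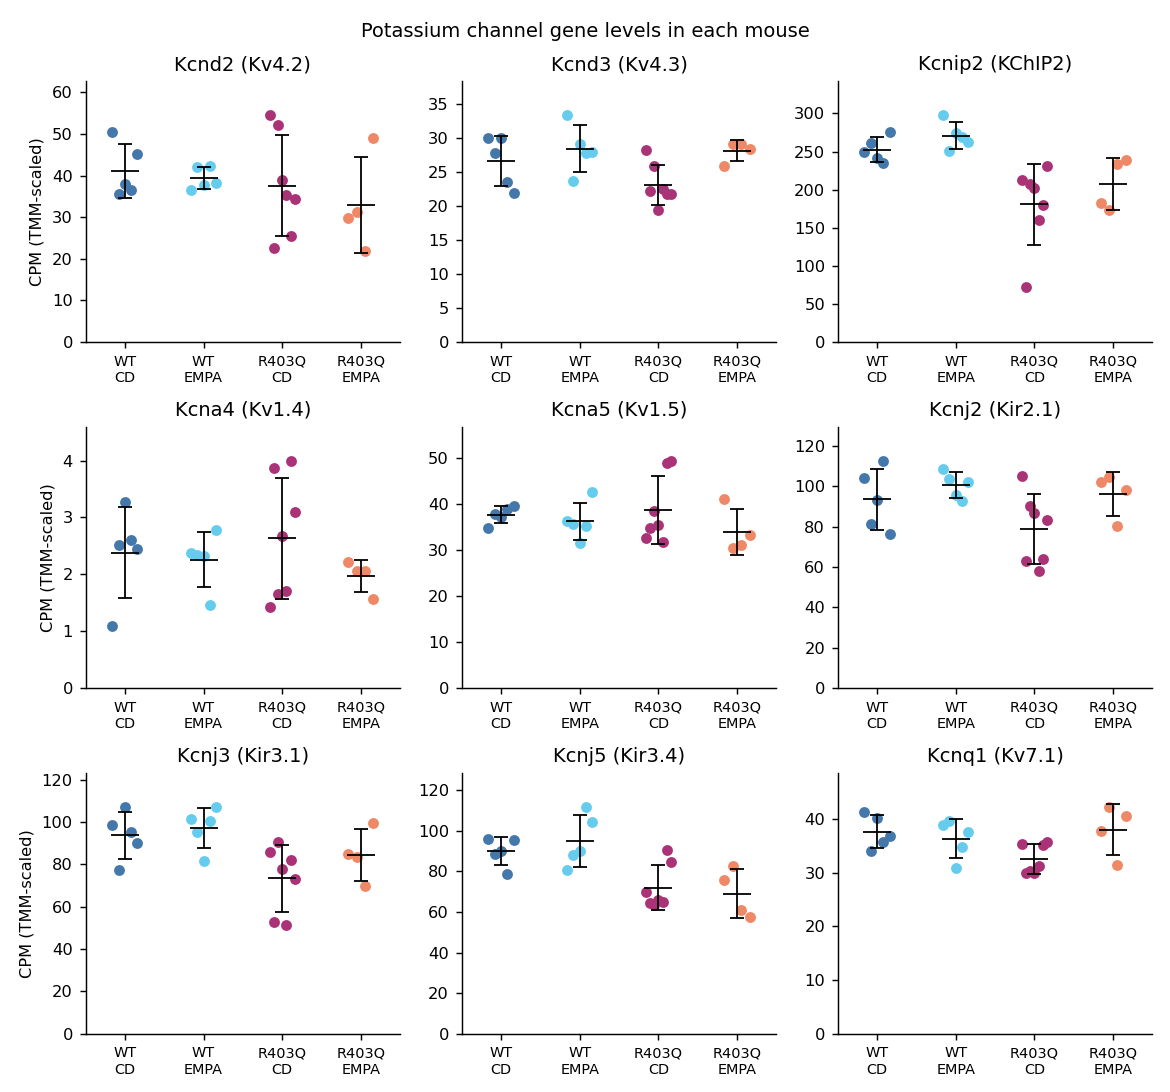
Level of each channel gene in each of the 21 mice, in CPM scaled by TMM (linear axes from 0), by genotype and diet. Dots are mice, bars the mean and SD. Kcnip2 is the gene whose R403Q mice all lie below the WT mice on the same diet, with 1 R403Q-CD mouse at 71.8 CPM.

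Levels of different genes were compared only after division by exon length. In WT-CD, Kcnip2 led by a wide margin at 72.6 ± 4.73 CPM per kb (SD, n = 5). Kcnj5 (19.2 ± 1.48), Kcnj3 (18.0 ± 2.14) and Kcnj2 (17.2 ± 2.80 CPM per kb) came next, and their ranges overlapped. Kcna5 lay below all 3 at 13.2 ± 0.629 CPM per kb, followed by Kcnq1 (9.19 ± 0.744) and Kcnd2 (7.99 ± 1.25), whose ranges overlapped, although Kcnq1 was the higher in 5 of 5 mice. Kcnd3 was at 2.78 ± 0.387 CPM per kb and Kcna4 at 0.493 ± 0.165, each below the gene before it without overlap. The accessory subunit was thus measured at 6.82 ± 0.803 times the summed level of the Kv4 pore genes per kb.

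In R403Q-CD the ranking changed only among genes whose ranges overlapped: Kcnj5, Kcnj2 and Kcnj3 followed Kcnip2, and the ranges of all 3 now met that of Kcna5. Kcnip2 was at 52.0 ± 15.3 CPM per kb (SD, n = 7) and still above every other member in 21 of 21 mice. With the longest transcript in place of all exons, Kcnip2 in WT-CD was at 81.1, Kcnq1 at 12.4 and Kcnd3 at 3.71 CPM per kb.

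**Figure D2:**
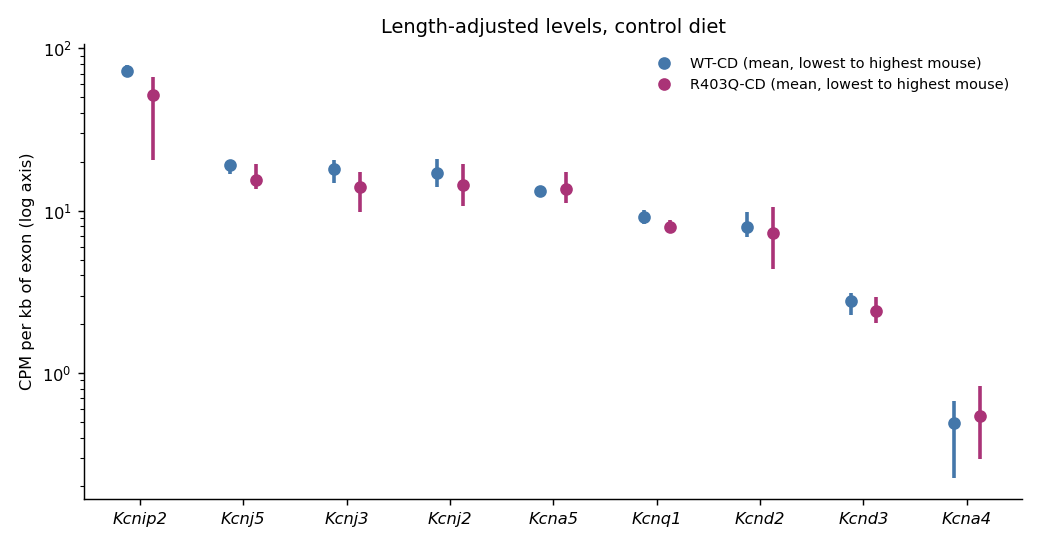
Length-adjusted levels on control diet, in CPM per kb of exon on a log axis, in the order of WT-CD. Dots are means and lines run from the lowest to the highest mouse (5 WT-CD, 7 R403Q-CD). Kcnip2 stands above the other genes, and the longest line is that of Kcnip2 in R403Q-CD.

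Kcnip2 (ENSMUSG00000025221) lies on the minus strand at chr19:45791839-45816061 in GRCm38. Its WT-CD mice were at 249, 261, 241, 235 and 276 CPM. The R403Q-CD mice ran from 71.8 to 231 CPM (median 202), so all 7 lay below the lowest WT-CD mouse. This complete separation downward was seen for 1 of the 9 genes, and for 1.01% of all genes.

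On EMPA the R403Q mice were at 183, 174, 234 and 239 CPM of Kcnip2 and the WT mice at 298, 251, 274, 269.7 and 262 CPM. Again the groups did not overlap, as for 3.41% of all genes in that comparison. Kcnip2 was the only member below WT without overlap on both diets, which held for 51 genes, or 0.295% of those tested.

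The single comparisons of Kcnip2 did not pass the threshold. In the edgeR fit the log2 fold change of R403Q against WT was -0.48 (SE 0.18, adjusted p = 0.131) with control diet and -0.39 (SE 0.20, adjusted p = 0.38) with EMPA. With cage as a block, the R403Q-CD difference passed (adjusted p = 0.0417), where 1128 genes were called against 250 without the block. Without R403Q-CD replicate 2 the log2 difference was -0.35 (adjusted p = 0.0576) with control diet and -0.37 (adjusted p = 0.00231) over both diets. The call over both diets held without R403Q-CD replicates 1, 2, 3, 4 or 7, R403Q-EMPA replicate 4 or WT-EMPA replicate 3, and was lost when any of the other 14 mice was left out, with adjusted p-values up to 0.093.

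In R403Q hearts EMPA was accompanied by a Kcnip2 difference of 0.20 on the log2 scale (SE 0.19, adjusted p = 0.675), and in WT hearts by 0.10 (SE 0.19, adjusted p = 0.886). The diets overlapped in both genotypes. The 2 highest R403Q-EMPA mice lay above all R403Q-CD mice, and the other 2 lay inside their range.

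The RefSeq promoter window of Kcnip2 runs from 250 bases before to 50 after the start of transcription. It is shown with those of Kcnj5 and Kcnj3, because these 3 genes were lower in R403Q mice in every cage that held both genotypes. Capitals mark CCACCC on either strand, a core bound by Krüppel-like factors, and the 3 windows were also searched on both strands for the E-box CACGTG, the cyclic AMP element TGACGTCA and the GATA motif AGATAA. The sequences are on the strand of the gene, from GRCm38.p6, at chr19:45816014-45816313 (minus), chr9:32344295-32344594 (minus) and chr2:55435720-55436019 (plus).
Kcnip2: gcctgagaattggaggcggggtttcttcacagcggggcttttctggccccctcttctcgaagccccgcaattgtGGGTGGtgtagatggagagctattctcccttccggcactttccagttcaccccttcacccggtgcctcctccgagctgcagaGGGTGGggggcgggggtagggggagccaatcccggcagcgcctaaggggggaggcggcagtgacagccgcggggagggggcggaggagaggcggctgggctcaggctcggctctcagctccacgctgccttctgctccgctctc
Kcnj5: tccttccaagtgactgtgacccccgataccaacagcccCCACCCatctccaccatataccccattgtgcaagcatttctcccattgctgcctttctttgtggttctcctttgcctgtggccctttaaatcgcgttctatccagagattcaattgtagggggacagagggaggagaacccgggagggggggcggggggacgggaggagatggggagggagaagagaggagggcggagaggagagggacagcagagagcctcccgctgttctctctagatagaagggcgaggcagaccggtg
Kcnj3: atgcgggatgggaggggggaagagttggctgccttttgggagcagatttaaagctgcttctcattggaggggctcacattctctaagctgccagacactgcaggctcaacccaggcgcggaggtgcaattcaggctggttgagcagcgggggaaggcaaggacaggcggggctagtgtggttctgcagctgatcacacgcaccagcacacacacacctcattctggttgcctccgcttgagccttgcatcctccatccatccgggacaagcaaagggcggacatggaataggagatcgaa

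The Kcnip2 window held CCACCC at 2 places, both on the opposite strand and starting at bases 75 and 157 of the window, and the Kcnj5 window held it at base 39. The Kcnj3 window held none of the 4 motifs. Of all 32851 promoter windows, 31.5% held CCACCC, 7.15% CACGTG, 11.2% AGATAA and 1.79% TGACGTCA. Promoter windows were matched for 8 of the 9 genes: CCACCC was in those of Kcnd2, Kcnd3, Kcnip2, Kcna4, Kcna5 and Kcnj5, and CACGTG in that of Kcnj2. No match overlapped another.

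Kcnd2 (chr6:21215503-21729805, plus strand) and Kcnd3 (chr3:105452330-105674002, plus strand) encode the Kv4 pores that KChIP2 binds. Their transcripts share the longest run of identical bases among the 36 pairs of members, 23 bases in the coding sequence, in capitals here with 15 bases on either side. The run is at chr6:21216545-21216567 in exon 1 of Kcnd2 and at chr3:105459059-105459081 in exon 2 of Kcnd3. It is shorter than the 100-base reads, and the other pairs share at most 18 identical bases.
Kcnd2: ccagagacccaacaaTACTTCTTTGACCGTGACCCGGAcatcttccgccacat
Kcnd3: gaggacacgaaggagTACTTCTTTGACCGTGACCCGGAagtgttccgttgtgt

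Kcnd2 spread more among the R403Q mice than among the WT mice. WT-CD mice lay between 35.6 and 50.5 CPM and WT-EMPA mice between 36.5 and 42.4 CPM. R403Q-CD mice ran from 22.6 to 54.5 CPM (median 35.3), with 4 of 7 below and 2 of 7 above every WT-CD mouse, and the R403Q-EMPA mice were at 29.8, 31.3, 21.8 and 49.0 CPM. The coefficient of variation was 32.3% in R403Q-CD and 34.7% in R403Q-EMPA, against 15.7% in WT-CD and 6.86% in WT-EMPA, and this difference in spread was not tested. On control diet this coefficient was also larger in R403Q than in WT mice for every other member except Kcnd3 (12.8% against 14.0%). For Kcnip2 it was 29.4% against 6.51%, and for Kcna4 40.7% against 33.4%. The genotype difference over both diets was -0.20 on the log2 scale (SE 0.15, edgeR adjusted p = 0.393).

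Kcnd3 was at 30.0, 27.7, 29.9, 23.6 and 21.9 CPM in WT-CD. R403Q-CD mice ran from 19.4 to 28.2 CPM (median 22.2), and the R403Q-EMPA mice were at 25.9, 29.1, 29.1 and 28.4 CPM. These groups overlapped, although 3 of 4 R403Q-EMPA mice lay above every R403Q-CD mouse. The log2 difference was -0.20 (SE 0.10, edgeR adjusted p = 0.23) for R403Q-CD against WT-CD and 0.29 (SE 0.10, adjusted p = 0.251) for EMPA in R403Q hearts, and neither passed. An antisense gene, Kcnd3os, shares 165 of the 9587 exon bases of Kcnd3, and without strand its reads could not be told apart from those of Kcnd3. Its median count was 33 against 870.

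Kcna4 (chr2:107290639-107298502) was the scarcest member, at 1.09 to 3.27 CPM in WT-CD and 1.47 to 2.78 CPM in WT-EMPA. R403Q-CD mice ran from 1.43 to 3.99 CPM (median 2.68) and the R403Q-EMPA mice from 1.57 to 2.22 CPM. All groups overlapped. The genotype difference over both diets was -0.02 on the log2 scale (SE 0.20, edgeR adjusted p = 0.963), and its 95% interval ran from -0.41 to 0.38, so changes of that size in either direction were not excluded.

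Kcna5 (chr6:126532551-126535412, minus strand) was steady in WT-CD, where the 5 mice lay between 34.8 and 39.4 CPM. The R403Q-CD mice were at 32.7, 34.8, 38.5, 35.3, 31.7, 48.9 and 49.4 CPM. The last 2 of these lay above all WT-CD mice and 3 of 7 lay below them. R403Q-EMPA mice were at 41.2, 30.4, 31.0 and 33.2 CPM. The genotype difference over both diets was -0.03 on the log2 scale (SE 0.08, edgeR adjusted p = 0.863), with a 95% interval from -0.19 to 0.14.

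Kcnj2 (chr11:111066164-111076821, plus strand), the inward rectifier, was at 104, 81.1, 93.1, 113 and 76.3 CPM in WT-CD. The R403Q-CD mice ran from 58.2 to 105 CPM (median 83.1), with 3 of 7 below every WT-CD mouse. R403Q-EMPA mice were at 102, 105, 80.3 and 98.2 CPM and WT-EMPA mice at 92.7 to 108 CPM. The difference between the R403Q diets was 0.29 on the log2 scale (SE 0.14, adjusted p = 0.354 and unadjusted p = 0.0431 in edgeR), and that between R403Q-CD and WT-CD was -0.25 (SE 0.13, adjusted p = 0.266).

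Kcnj5 (chr9:32314707-32344350, minus strand) gave the firmest genotype difference of the 9 genes. The WT-CD mice were at 95.9, 88.7, 90.2, 78.8 and 95.6 CPM. The R403Q-CD mice were at 69.9, 64.3, 63.5, 65.9, 65.0, 90.4 and 84.7 CPM, so 5 of 7 lay below the lowest WT-CD mouse and 2 lay inside the WT range.

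On EMPA the Kcnj5 level was 75.5, 82.5, 60.8 and 57.4 CPM in R403Q mice and 80.5, 87.8, 89.8, 112 and 104 CPM in WT mice. Here 3 of 4 R403Q mice were below all WT mice. The log2 difference was -0.32 (SE 0.11, adjusted p = 0.104) on control diet and -0.46 (SE 0.12, adjusted p = 0.12) on EMPA in edgeR, both short of the threshold taken singly. With cage as a block the control-diet difference passed (adjusted p = 0.0239), where 1128 genes were called against 250 without the block. With DESeq2's Wald test the EMPA-diet difference passed (adjusted p = 0.0269), where 297 genes were called against 10 in edgeR.

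The fall of Kcnj5 over both diets passed in all 6 other fits and with each of the 21 mice left out in turn, with adjusted p-values between 0.000277 and 0.0188. Without R403Q-CD replicate 2, the mouse with the most atrial marker RNA, the log2 difference was -0.38 (adjusted p = 0.00544) over both diets and -0.30 (adjusted p = 0.163) with control diet. EMPA moved Kcnj5 by -0.06 (SE 0.12, adjusted p = 0.864) in R403Q hearts and by 0.08 (SE 0.12, adjusted p = 0.85) in WT hearts, neither of which passed.

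Kcnj3 (chr2:55435970-55598145, plus strand), the partner of Kcnj5, was at 98.8, 77.3, 107, 95.5 and 90.0 CPM in WT-CD. The R403Q-CD mice were at 86.1, 52.8, 90.7, 77.9, 51.2, 82.1 and 73.1 CPM, overlapping WT-CD, with 3 of 7 below it. The R403Q-EMPA mice were at 85.1, 83.6, 69.9 and 99.6 CPM and the WT-EMPA mice at 81.7 to 107 CPM. Over both diets Kcnj3 was lower by a log2 difference of -0.28 (SE 0.10) and missed the threshold in edgeR (adjusted p = 0.0684). It passed in DESeq2 (adjusted p = 0.0383) and without R403Q-CD replicate 3, R403Q-EMPA replicate 4 or WT-EMPA replicate 3 (adjusted p = 0.0357, 0.0442 and 0.048). A lincRNA gene on the opposite strand, Gm26794, covers 1621 of its 5215 exon bases, and without strand its reads could not be told apart from those of Kcnj3.

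Kcnq1 (chr7:143106362-143427042, plus strand) varied little. WT-CD mice were at 34.0 to 41.3 CPM, R403Q-CD mice at 29.9 to 35.8 CPM (median 31.2), and R403Q-EMPA mice at 37.8, 42.3, 31.5 and 40.5 CPM. On control diet 4 of 7 R403Q mice lay below the WT mice, and on EMPA 3 of 4 R403Q mice lay above every R403Q-CD mouse. The log2 difference was -0.21 (SE 0.08, edgeR adjusted p = 0.149) for R403Q-CD against WT-CD and 0.22 (SE 0.09, adjusted p = 0.262) for EMPA in R403Q hearts. The antisense gene Kcnq1ot1 shares 121 of the 4093 exon bases of Kcnq1, with a median count of 173 against 1168, and without strand reads there could not be told apart. The interaction of genotype and diet was 0.27 for Kcnq1 (SE 0.12), with an unadjusted p of 0.0364 and an adjusted p of 0.999.

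In each comparison of single groups, 0 of the 9 genes passed. R403Q-CD against WT-CD called 1.44% of all genes, and 5 of the 9 had an unadjusted p under 0.05 (Kcnip2, Kcnj3, Kcnj5, Kcnq1 and Kcnd3) against 3623 of 17309 genes, or 20.9%. EMPA in R403Q hearts called 0.0116% of genes, and Kcnd3, Kcnj2 and Kcnq1 had an unadjusted p under 0.05, all with a higher level on EMPA, against 13.4% of all genes at that unadjusted threshold. No member separated these groups without overlap, against 1.62% of genes in either direction, and none separated the WT diets, against 3.45%.

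Between R403Q-EMPA and WT-EMPA 0.0578% of genes were called, and 1 of the 9, Kcnj5, had an unadjusted p under 0.05 (0.00134), against 14.7% of all genes. Fitted R403Q minus WT differences were negative for 7 of 9 members on control diet (47.5% of all genes) and for 8 of 9 on EMPA (48.3%). EMPA in WT hearts called 0.0289% of genes, and 0 of the 9 had an unadjusted p under 0.05 there, against 11.0% of all genes. The diet effect averaged over genotypes called 2.91% of genes and 0 of the 9, with Kcnd3 the nearest at 0.19 on the log2 scale (SE 0.07, adjusted p = 0.149). The interaction of genotype and diet called 0 genes in edgeR and in DESeq2, with 567 and 759 genes at an unadjusted p under 0.05. The 2 R403Q comparisons on control diet and with EMPA share the R403Q-CD mice, so opposite signs in them are not independent.

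**Figure D3:**
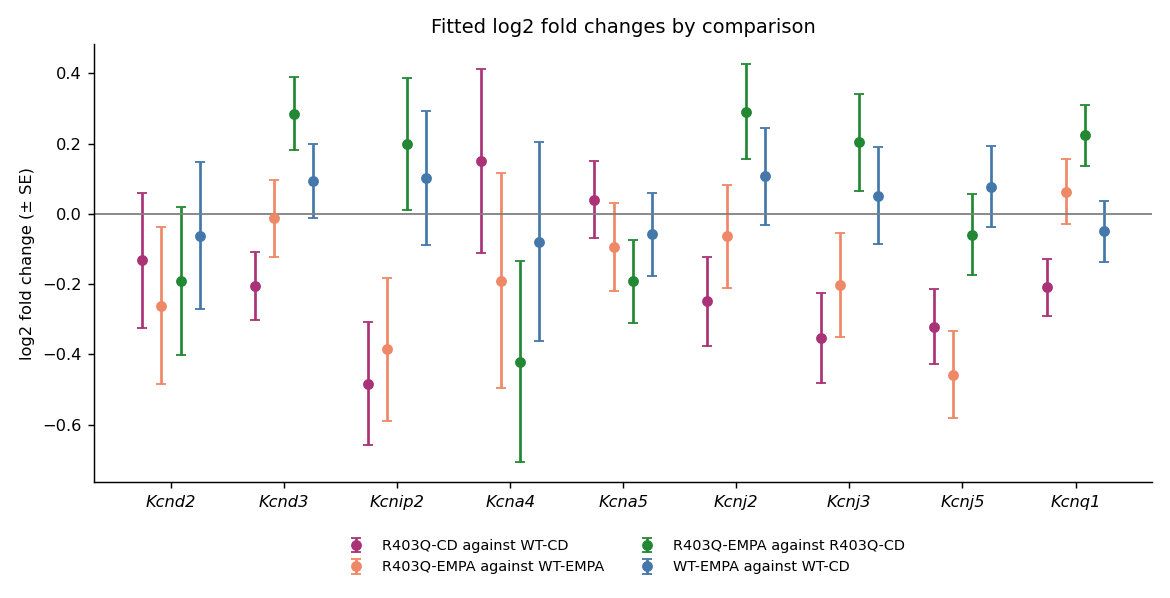
Fitted log2 fold change with its SE for each channel gene in 4 comparisons from the edgeR fit of all 21 mice. Both genotype comparisons lie more than 1 SE below 0 for Kcnip2, Kcnj3 and Kcnj5, and R403Q-CD mice enter more than a single comparison.

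Within cages, as inferred from the sample titles, genotype differences could be read without the effect of diet. Kcnip2, Kcnj3 and Kcnj5 were each lower in R403Q than in WT cage mates in 6 of 6 cages, as were 10.1% of all genes, and Kcnq1 was lower in 5 of 6. The log2 CPM difference ran from -1.80 to -0.15 for Kcnip2, from -0.79 to -0.18 for Kcnj3 and from -0.82 to -0.27 for Kcnj5. The lowest value of Kcnip2 and of Kcnj3 came from the cage of R403Q-CD replicate 2. Kcna4 was lower in 2 of 6 cages, and the other 4 genes in 4 of 6.

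**Figure D4:**
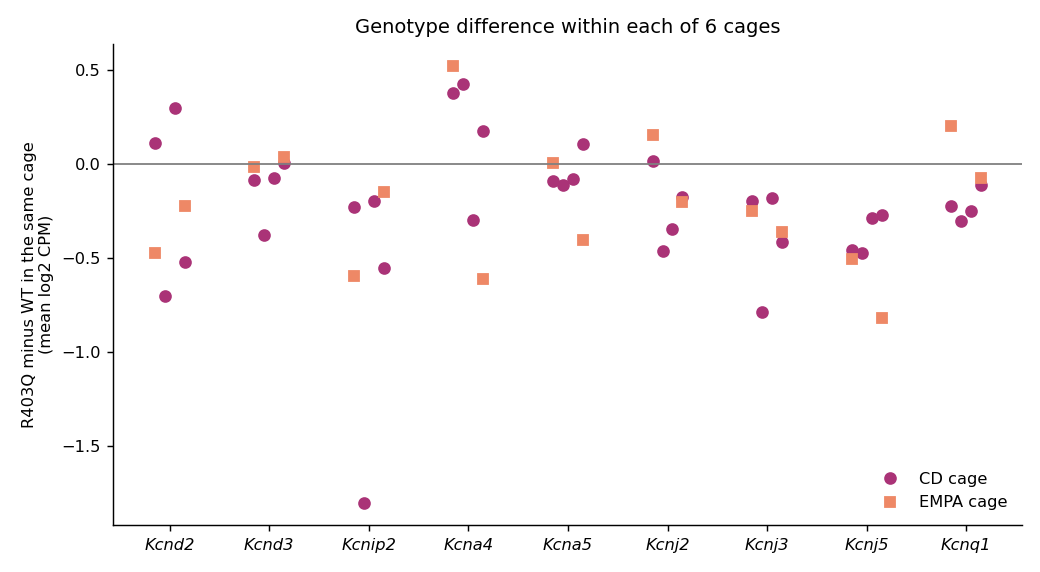
Mean log2 CPM of R403Q mice minus that of WT mice in the same cage (inferred from the sample titles), for the 6 cages that held both genotypes. Circles are the 4 control-diet cages and squares the 2 EMPA cages. Kcnip2, Kcnj3 and Kcnj5 lie below 0 in every cage.

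The R403Q-CD hearts differed 12.5-fold in Nppa, from 883 to 10996 CPM, and the channel genes were read along this range. In an edgeR fit of 15134 genes across the 7 mice, Kcnip2 fell by 0.37 log2 units for each log2 unit of Nppa (SE 0.07, adjusted p = 0.00414) and Kcnj3 fell by 0.21 (SE 0.04, adjusted p = 0.00578). That is 2 of 9 called with a negative slope, while 19.4% of all genes were called and 8.73% with a negative slope. Slopes were negative for 8 of 9 members and 50.6% of all genes, and Kcnj5 had a slope of -0.07 (SE 0.05, adjusted p = 0.33).

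These slopes rested on few mice. Without R403Q-CD replicate 2 the slope of Kcnip2 was -0.16 (adjusted p = 0.585) and that of Kcnj3 -0.35 (adjusted p = 0.0456), and 96 genes were called in place of 2938. Leaving out replicate 5 as well, chosen after seeing the data as the second farthest in Nppa, left 5 mice, 0 genes called, and slopes of 0.09 for Kcnip2 and -0.30 for Kcnj3. In replicates 2 and 5 the Kcnip2 level was 71.8 and 160.1 CPM, Kcnj3 was 52.8 and 51.2 CPM, fibroblast markers summed to 6001 and 3032 CPM, and ventricular markers to 50313 and 72181 CPM. The part of these marker differences in the slopes was not tested.

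**Figure D5:**
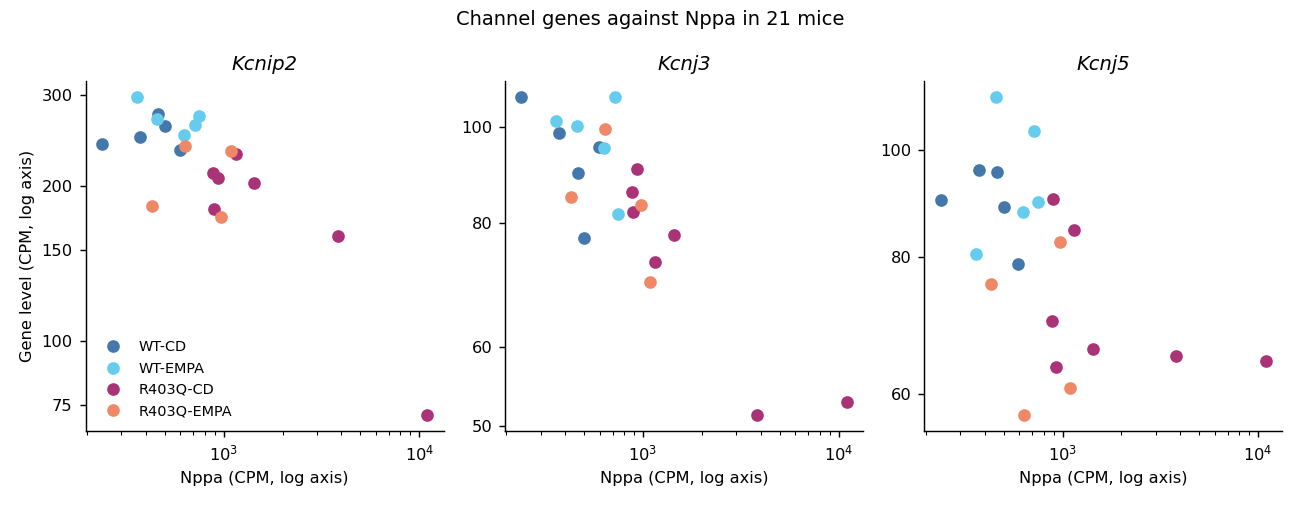
Kcnip2, Kcnj3 and Kcnj5 against Nppa in 21 mice, both in CPM on log axes. The R403Q-CD mice at 3826 and 10996 CPM of Nppa have the 2 lowest levels of Kcnip2 and of Kcnj3, whereas Kcnj5 is about as low in several R403Q mice with little Nppa.

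Ratios of partner genes within a mouse do not depend on how libraries are scaled. KChIP2 relative to the Kv4 pores per kb averaged 6.82 ± 0.803 (SD) in the 5 WT-CD mice, 5.42 ± 1.56 in the 7 R403Q-CD mice, 6.61 ± 1.79 in the 4 R403Q-EMPA mice and 7.35 ± 0.526 in the 5 WT-EMPA mice. Kcnj3 relative to Kcnj5 was 0.942 ± 0.135, 0.927 ± 0.222, 1.13 ± 0.292 and 0.931 ± 0.133 in the same order. Of 20 two-sided exact permutation tests (5 ratios in 4 comparisons), 0 passed after adjustment and 1 had an unadjusted p under 0.05. That was Kcnj2 over the sum of Kcnj3 and Kcnj5 between R403Q-EMPA (0.571 ± 0.00804) and WT-EMPA (0.480 ± 0.0608), with an exact p of 0.0159 and an adjusted p of 0.318.

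After the group means were removed, the members moved together only in part over the 21 mice. Kcnj2 and Kcnj3 had the highest correlation of log2 CPM (r = 0.689), and Kcnd2 and Kcna4 the lowest (r = -0.736). These values describe libraries that share depth and scaling. The genes most like Kcnip2 were Bckdha, Tcea3 and Plk5 (r = 0.946, 0.945 and 0.937). Without R403Q-CD replicate 2, left out after seeing the data, these were 0.681, 0.702 and 0.689. The genes most like Kcnj3 were Pde4a, Slc16a10 and Got2 (r = 0.883, 0.873 and 0.862). Agtpbp1, Atl2 and Ppargc1a were nearest to Kcnd2 (r = 0.853, 0.833 and 0.833), Tmem164, Ucp3 and Tpp2 to Kcnj2 (r = 0.885, 0.868 and 0.837), and Rbm12b2, Sh3tc2 and Ctps to Kcnj5 (r = 0.831, 0.81 and 0.796). For Kcnd3 they were Ptprd, Cep135 and Srrm1 (r = 0.798, 0.793 and 0.781), for Kcnq1 Zfp445, Vav2 and Zfpm2 (r = 0.815, 0.801 and 0.78), for Kcna4 Neb, Arhgef15 and Slc10a7 (r = 0.824, 0.821 and 0.808), and for Kcna5 Sh2d3c, Rasgrf2 and Gm45163 (r = 0.839, 0.835 and 0.829).

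Of 66 other potassium channel genes, 47 could be tested, and over both diets 7 were called lower in R403Q and 1 higher, with a median of -0.05 on the log2 scale. Of all genes, 4.58% were called lower and 6.3% higher. This list and those of depolarizing currents, regulators and clock genes were chosen with earlier results of these data known. Kcnj12, the Kir2.2 inward rectifier, fell by 0.54 (SE 0.08, adjusted p = 0.000998) and Kcnk3, the TASK-1 leak channel, by 0.42 (SE 0.08, adjusted p = 0.00493). Kcnj11, the pore of the ATP-sensitive channel, fell by 0.29 (SE 0.08, adjusted p = 0.0207), beside its sulphonylurea receptor Abcc8 (-0.31, adjusted p = 0.0343). Kcnn2 (-0.40, adjusted p = 0.0335) and Kcng2 (-0.19, adjusted p = 0.0483) fell as well, and Kcne4, an accessory subunit of voltage-gated channels, rose by 0.51 (SE 0.15, adjusted p = 0.0311).

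With control diet alone, 3 of the 47 genes were called lower, while 1.44% of all genes were called in either direction. Among the 3 were Kcnj12 and Kcnk3 (-0.46 and -0.45 on the log2 scale, adjusted p = 0.0337 and 0.0351), and 0 of the 9 members passed there. On EMPA averaged over genotypes 2 of the 47 were called higher, among them Kcnk3, which rose by 0.34 (adjusted p = 0.0293), against 2.91% of all genes called. Kcnh2, the pore of the rapid delayed rectifier, was at -0.15 over both diets (SE 0.07, adjusted p = 0.154), Kcne1, the accessory subunit of Kv7.1, at 0.14 (SE 0.20, adjusted p = 0.679), and Kcnq1ot1, an antisense transcript in the Kcnq1 locus, at -0.28 (SE 0.15, adjusted p = 0.239), none of which passed.

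Among 25 tested genes of the depolarizing currents, 7 were called lower and 0 higher over both diets (against 4.58% and 6.3% of all genes). Among them were the T-type calcium channel gene Cacna1g (-0.79), the pacemaker channel gene Hcn4 (-0.83), the L-type channel genes Cacna1c (-0.33), Cacna2d1 (-0.37) and Cacnb2 (-0.34), and the sodium-calcium exchanger gene Slc8a1 (-0.32 on the log2 scale), with edgeR adjusted p-values from 0.000737 to 0.05. Cacna1g (-0.94, adjusted p = 0.00424) and Hcn4 (-1.15, adjusted p = 0.0109) also passed with control diet alone. The skeletal-muscle sodium channel gene Scn4a rose by 0.84 with EMPA averaged over genotypes (adjusted p = 0.0494).

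Of 36 tested regulators of channel genes and channel proteins, 12 were called lower and 0 higher over both diets (against 4.58% and 6.3% of all genes). Klf15, a Krüppel-like factor known to act on Kcnip2, fell by 0.33 (SE 0.07, adjusted p = 0.00937), and also with control diet alone (-0.39, adjusted p = 0.0372). There R403Q mice were at 85.9 to 114 CPM against 129 to 145 CPM in WT mice, a separation downward seen for 1.01% of all genes. On EMPA the ranges overlapped, at 91.7 to 127 CPM in R403Q mice and 101 to 150 CPM in WT mice. The Iroquois factors Irx3 (-0.68, adjusted p = 0.0178) and Irx5 (-0.62, adjusted p = 0.0433), known for shaping the transmural gradient of Kv4.2, were lower too. The scaffold genes Akap6 (-0.24), Dlg1 (-0.18) and Ank2 (-0.33), the ubiquitin ligase gene Nedd4l (-0.25) and the transcription factor gene Nfatc2 (-0.22) passed with adjusted p-values between 0.0179 and 0.0281. Averaged over genotypes, EMPA called 3 regulators higher, Mef2d (0.33), Dlg1 (0.21) and Foxo1 (0.33), and 1 lower, Cav3 (-0.29), with adjusted p-values from 0.0139 to 0.0469. Of all genes, 2.91% were called for diet.

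Transcripts of Kcnip2 and of Kcnd2 are known to follow the time of day, so 18 clock genes were read beside the members. Averaged over genotypes, EMPA mice had more Arntl (1.70 on the log2 scale, adjusted p = 0.0244) and Clock (0.36, adjusted p = 0.0411), and less Ciart (-1.43), Dbp (-1.02), Nr1d1 (-0.62), Hlf (-0.46) and Per1 (-0.34), with adjusted p-values from 0.00698 to 0.0436. These were 2 of 18 called higher and 5 called lower, while 2.91% of all genes were called for diet. Since 0 cages held both diets, diet and cage cannot be told apart in these values. Between genotypes over both diets 1 of 18 passed, Hlf (-0.41, adjusted p = 0.0327), against 10.9% of all genes. Kcnip2 and Kcnd2 differed by 0.15 (adjusted p = 0.57) and -0.13 (adjusted p = 0.68) with diet, and the part of the clock genes in any of these values was not tested.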

How the data were processed

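RNA of 21 mice was analysed, and each mouse is a replicate. The authors extracted poly(A) RNA from frozen left ventricle, sequenced read pairs, aligned them to mm10 with STAR 2.6.0c and made the deposited counts of non-mitochondrial Ensembl genes with featureCounts (Subread 1.6.2) from uniquely aligned proper pairs; the methods name same-strand counting but not a stranded kit. The authors also deposited log2 values, which are DESeq2 1.32.0 variance-stabilized counts and were used only as an alternative. Symbols and exons came from GENCODE M21 (GRCm38), and promoters from RefSeq (GRCm38.p6).

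Counts were tested in R 4.3.3 with edgeR 4.0.16: filterByExpr with a minimum count of 10, TMM scaling, the quasi-likelihood F test in a single fit of 4 groups, and Benjamini-Hochberg adjustment over all 17309 genes tested, with 0.05 as the threshold. The study reported its RNA sequencing comparisons for 3 groups. CPM are counts per 1000000 on the TMM scale, and log2 CPM used a prior count of 2. SEs were derived from the F statistic, and 95% intervals are 1.96 SEs on either side. Ratios were tested by exact permutation. The scripts were tested on simulated data.

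The 9 members and the gene lists were chosen with earlier results of these data known. Named are all members, every gene of the 4 lists (other potassium channels, depolarizing currents, regulators, clock) that passed, with the 8 smallest p-values where more did, Klf15, Irx5, Kcnh2, Kcne1, Kcnq1ot1 and a few others whatever their p, Nppa and Myh6 as checks, and the 3 genes most like each member. A few genes of these lists are counted but not reported by name here. Alternatives were no filter, library size alone, DESeq2 1.42.0, limma 3.58.1 on the deposited values, fits of fewer groups, cage as a factor or as a random effect, and leaving out each mouse. Groups came from the labels, and cages were inferred from the number in each sample title, which the titles do not name as a cage. Mice of the same cage were paired by that number, and as a random effect the cage had a consensus correlation of 0.103.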

Additional observations from a re-analysis of the deposited data

Results flagged for a closer look

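Among the 36 combinations of a member and a group, no mouse stood apart from the rest of its group by Dixon's test at 95%. The check genes gave 2 such values. Nppa in R403Q-CD replicate 2 was 10996 CPM, while the other 6 mice of that group lay between 883 and 3826 CPM. Myh6 in WT-EMPA replicate 1 was 54667 CPM, while the other 4 lay between 40424 and 44153 CPM. Chance flags about 1 in 20 groups. Kcnip2 in R403Q-CD replicate 2 was the lowest of all mice at 71.8 CPM, but the gap to the next did not reach the critical value.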

How the results depend on the processing

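The fall of Kcnj5 over both diets passed in every alternative run, and that of Kcnip2 in 5 of 6, the exception being cage as a replicate block, with which 1 member passed over both diets and 2 in R403Q-CD against WT-CD. Samples were paired by the cage inferred from the sample titles, and the block changed no other member's call. The diet comparisons could not be fitted with cage as a factor, since 0 cages held both diets. Genes called in R403Q-CD against WT-CD (250) became 28 with those 2 groups alone, 98 with the study's 3 groups, 971 with DESeq2, 475 with cage as a random effect and 1128 with the block. In R403Q-EMPA against R403Q-CD (2) they became 0 with 2 or 3 groups, 145 with DESeq2 and 5 with library size alone. In R403Q-EMPA against WT-EMPA (10) they became 123 with 2 groups, 297 with DESeq2, where 1 member passed, and 0 with the block. In WT-EMPA against WT-CD (5) they became 114 with DESeq2, 1 with the random effect and 0 with library size alone. For diet over both genotypes (504) they became 984, 113 and, with no filter, 314, and for genotype (1883) 944 with the block. The longest transcript moved Kcnd3, Kcnip2 and Kcnq1 to 3.71, 81.1 and 12.4 CPM per kb.

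Leaving out each mouse in turn gave 31 to 1045, 0 to 12, 1 to 64 and 0 to 7 genes in these 4 comparisons, 122 to 929 for diet, 961 to 2764 for genotype and 96 to 3128 for the slope on Nppa. The extremes were those without WT-CD replicate 3 (31) and R403Q-CD replicate 3 (1045) on control diet, R403Q-EMPA replicate 3 (122) and R403Q-CD replicate 3 (929) for diet, R403Q-EMPA replicate 1 (961) for genotype and R403Q-CD replicate 2 (96) for the slope. It gave 1 to 3 members for genotype and 1 to 4 for the slope. Without the 2 mice farthest in Nppa, an alternative chosen after seeing the data, 0 genes and 0 members had a slope and that of Kcnip2 was 0.0888.

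Apart from that slope, signs reversed only for log2 values that had not passed. Kcna4 over both diets was 0.0198 with the random effect, 0.0596 with the block and 0.0447 with library size alone. Kcna5 was -0.0279 in R403Q-CD against WT-CD with the block and 0.0313 over both diets with library size alone. Kcnd3 in R403Q-EMPA against WT-EMPA was 4.42e-05, 0.0136 and 0.0419 with these 3, and Kcnj5 with diet was -0.00877 with library size alone. With a mouse left out, Kcna4 ran from -0.0283 to 0.287 in R403Q-CD against WT-CD, -0.259 to 0.0575 in WT-EMPA against WT-CD, -0.109 to 0.0488 over both diets and -0.238 to 0.225 in its slope. Kcna5 ran from -0.0266 to 0.0831 in R403Q-CD against WT-CD and -0.0799 to 0.0057 over both diets. Kcnd2, Kcnj3 and Kcnq1 in WT-EMPA against WT-CD ran from -0.11 to 0.0219, -0.00938 to 0.109 and -0.083 to 0.00467. Kcnd3 and Kcnj2 in R403Q-EMPA against WT-EMPA ran from -0.0714 to 0.0517 and -0.107 to 0.00511. Kcnj5 ran from -0.153 to 0.0198 with EMPA in R403Q hearts and -0.0385 to 0.0491 with diet. In the interaction Kcnd2 ran from -0.38 to 0.0239 and Kcnip2 from -0.0431 to 0.179. The cause was not tested for any of these shifts. With 4 to 7 mice per group, small changes were not excluded, and Kcna4 had only 32 to 187 counts per mouse.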
